A study of Mus musculus with 12 samples.

Results

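The miRNAs recovered with tagged AGO2 from the total fraction of mouse embryonic stem cells were compared between cultures given doxycycline and cultures left without it. Of the 689 miRNA entries in the deposited table, 359 had a mean of 10 or more reads in at least 1 of both groups and make up the comparison. Of these, 220 reached the minimum only with doxycycline, 137 in both groups and 2 only without it. Just inside the minimum lay miR-219 (10 mean reads with doxycycline and 0.333 without), miR-1306 (10.3 with and 1.33 without) and miR-505 (10.3 with and 0 without). Just outside it lay let-7c-2* (1.17 with and 9.11 without), miR-1188 (9.33 with and 0 without) and miR-29a* (7.33 with and 9.33 without).

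All cells were an ESC line with doxycycline-inducible expression of HA-Flag-AGO2, grown on gelatin with leukemia inhibitory factor. The induced cells received 2.5 ug/ml doxycycline 15 h before harvest and the other cells received none, with 3 libraries per group. The control cells therefore carried the same transgene, not an empty line. Neither the promoter of the transgene nor whether the line is 1 clone is given in the sources used here. RNA came from a pull-down with the monoclonal ANTI-FLAG M2 antibody. The labels name the fraction Total while the extraction text speaks of a cytoplasmic one, so whether nuclei were included was not settled. The table has 1 mean per group and no AGO2 measurement, so no difference below has a replicate check, the induction itself was not checked, and the errors given are 95% counting intervals. Nothing states whether the 3 libraries of a group came from separate cultures.

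Argonaute proteins hold a single-stranded miRNA and use it to find messenger RNAs, mainly through the seed, bases 2 to 8 of the miRNA. A hairpin precursor is cut into a duplex, and Argonaute keeps a strand of it, the guide, while the other strand is removed. In the older names used here an asterisk marks the strand that had been seen less often, and a -5p or -3p suffix was used where neither strand clearly prevailed. The M2 antibody recognises the FLAG tag and not the cell's own AGO2.

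Sequences of the miRNAs that carry the results are from RefSeq on GRCm38.p6, with the seed in capitals. The first set shares the seed AAGUGCU, the main seed of mouse embryonic stem cells, and is shown because it took the largest share of reads with doxycycline of any seed among entries matched to RefSeq.
miR-294: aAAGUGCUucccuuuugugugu
miR-295: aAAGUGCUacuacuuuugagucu
miR-291a-3p: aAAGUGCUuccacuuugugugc
miR-302b: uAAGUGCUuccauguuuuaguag
miR-302d: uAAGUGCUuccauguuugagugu
miR-291a-3p, miR-294 and miR-295 lie between annotated genes at chr7:3218968-3218989, chr7:3220691-3220712 and chr7:3220815-3220837, and miR-302b and miR-302d between genes at chr3:127545275-127545297 and chr3:127545665-127545687.

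The second set has the seed AAAGUGC, which is the first shifted by 1 base, and is shown because each of its 6 members was relatively higher with doxycycline on the main scale used.
miR-17: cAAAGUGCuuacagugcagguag
miR-20a: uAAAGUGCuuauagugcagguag
miR-20b: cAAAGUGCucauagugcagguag
miR-93: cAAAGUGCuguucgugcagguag
miR-106a: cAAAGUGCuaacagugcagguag
miR-106b: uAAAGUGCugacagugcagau
miR-17 (chr14:115043684-115043706) and miR-20a (chr14:115044183-115044205) lie in an exon of Mir17hg. miR-93 (chr5:138165574-138165596) and miR-106b (chr5:138165787-138165807) lie in an exon and an intron of Mcm7. miR-106a (chrX:52742541-52742563) lies in an exon of Kis2 and miR-20b (chrX:52742159-52742181) between genes.

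The third set shows both strands of hairpins, because the strands of a hairpin differed in most hairpins compared. miR-200c, miR-27b and miR-191 had the largest changes with both strands matched, miR-295, miR-21 and miR-30e are well-covered examples, and miR-411 had none past 2-fold.
miR-200c: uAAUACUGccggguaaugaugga
miR-200c*: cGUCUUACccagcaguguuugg
miR-27b: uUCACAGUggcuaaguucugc
miR-27b*: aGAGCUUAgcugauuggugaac
miR-191: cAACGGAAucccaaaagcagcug
miR-191*: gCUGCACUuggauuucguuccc
miR-295*: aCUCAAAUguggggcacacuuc
miR-21: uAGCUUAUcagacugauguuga
miR-21*: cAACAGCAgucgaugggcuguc
miR-30e: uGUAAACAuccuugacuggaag
miR-30e*: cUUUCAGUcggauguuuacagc
miR-411: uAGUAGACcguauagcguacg
miR-411*: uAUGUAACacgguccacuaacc
The miR-200c strands lie in an intron of Gm15884 (miR-200c* at chr6:124718365-124718386), those of miR-27b in an exon of 2010111I01Rik (miR-27b* at chr13:63300718-63300739), those of miR-191 in an exon of 4833445I07Rik (miR-191* at chr9:108568367-108568388), those of miR-21 in an exon of Vmp1 (miR-21* at chr11:86584082-86584103), and those of miR-30e in an intron of Nfyc (miR-30e* at chr4:120772618-120772639). Those of miR-295 (miR-295* at chr7:3220779-3220800) and miR-411 (miR-411* at chr12:109710225-109710246) lie between genes.

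The pull-down with doxycycline held far more miRNA reads. The sum over all entries averaged 539627 reads per library with doxycycline and 16053.4 reads without it, a ratio of 33.6 (33.3 to 33.9). Sequencing depth and the amount of RNA recovered cannot be told apart in such a ratio, nor can fewer cells of a type and less RNA per cell in bulk samples. A count of 0, taken as up to 3 reads over a group, allows up to 1.85 CPM (reads scaled to the column total) with doxycycline, but 62.3 CPM without it. A read was seen for 594 entries with doxycycline and 505 without it, and 10 mean reads were reached by 357 with doxycycline and 139 without it. With doxycycline the 10 leading entries held 69.6% of reads, against 62.5% without it. miR-805 alone took 0.833% of reads with doxycycline and 33.3% without it. The name miR-805 had no match among RefSeq miRNAs, and whether its reads come from a miRNA was not tested. Leaving out miR-805, the ratio of sums was 49.9 and the 10 leading entries held 70.2% and 46.2% of reads. It then took 59 entries to hold 90% of the reads with doxycycline and 115 entries without it.

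The identity of the cells was visible in both groups. The miR-290-295 cluster, which is expressed in mouse embryonic stem cells and lost as they differentiate, held 68.8% of reads with doxycycline and 32.1% without it, or 69.4% and 48.2% without miR-805. These shares, like those of the markers below, move with the groups, and their part in the results was not tested. The related miR-302 and miR-367 cluster, more typical of the later primed state, held 0.108% and 0.133%. The marker lists for other tissues held less than the stem cell cluster in each group. Blood cell markers held 0.781% with and 1.40% without doxycycline, fibroblast and mesenchymal markers 0.708% and 1.21%, neural markers 0.633% and 0.758%, and liver and muscle markers 0.0781% and 0.586%. Single markers in these lists differed widely. The blood cell miR-142-3p had 2734 mean reads with doxycycline and 82.3 without it, neural miR-124 had 2683 with and 35 without, fibroblast and mesenchymal miR-21 had 2623 with and 66 without, and muscle miR-499 had 354 with and 15.3 without. At or near 0, muscle miR-133a and miR-133b had 0 mean reads with doxycycline and 1.22 and 1.11 without it, muscle miR-1 had 3 and 1, and myeloid miR-223 had 0.333 and 2.33.

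**Figure D1:**
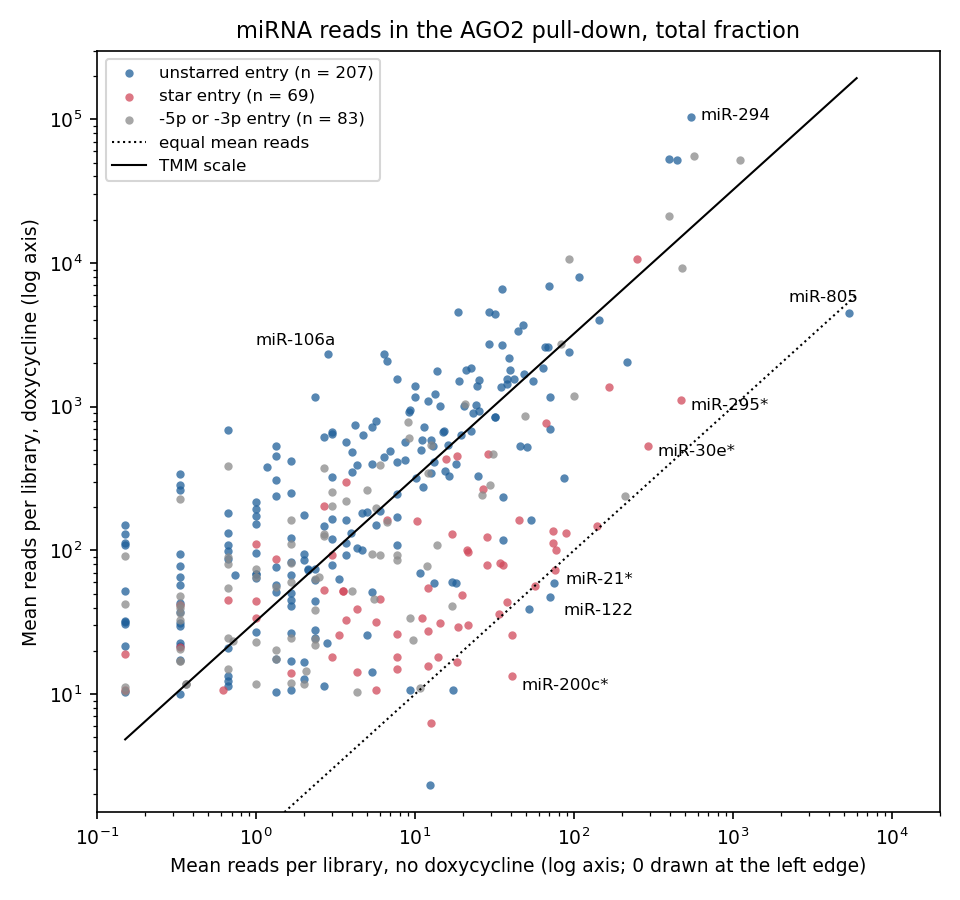
Mean reads per library with doxycycline (vertical log axis) against mean reads without it (horizontal log axis) for the 359 tested miRNA entries, coloured by kind of name. The dotted line marks equal reads and the solid line the 32.2-fold scale at which an entry counts as relatively unchanged; star entries cluster towards the dotted line, and 12 entries lie below it.

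Most tested entries had more reads with doxycycline. Of 359 entries 347 had more reads and 12 had fewer, but for the 220 that reached the minimum only with doxycycline this direction was fixed by the filter. Of the 137 entries that reached it in both groups, 127 had more reads with doxycycline and 10 had fewer, 83 had at least 10 times more, and the median entry had 23.1 times more. The counts and medians over all 359 entries that follow describe a set that was partly chosen for high reads with doxycycline. The median entry of all 359 had 33.2 times the reads it had without doxycycline, but the spread was wide. The 5th, 25th, 75th and 95th percentiles of this read multiple, the mean with doxycycline divided by the mean without, were 1.27, 10.4, 80.5 and 232. Levels with and without doxycycline ranked only partly alike (Spearman's rho 0.56 over 359 entries, given as a description, since entries are not replicates and share their libraries).

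To say which entries stood above or below the bulk, the columns were scaled with TMM factors (trimmed mean of M values), by which 32.2 times the reads counts as no relative change. A log2 fold is given on that scale. By a rule of size at 2-fold, 114 entries were relatively higher with doxycycline (31.8% of all tested) and 111 relatively lower (30.9%). Another 123 lay within 2-fold, and 11 were at 0 without doxycycline with a bound that did not settle the side. Counting intervals excluded no change for 91 of the higher and 102 of the lower entries. The calls also went with reads with doxycycline, which enter the fold. Below 30 mean reads, 3 of 72 entries were higher and 44 lower. From 1000 mean reads on, 29 of 58 were higher and 5 lower. Against 3 reads over the group without doxycycline, a higher call took 64.5 mean reads with it, and 130 tested entries had fewer. Shares of lists that differ in abundance are therefore not strictly comparable with 31.8% and 30.9%. The split depends on the scale: with the totals without miR-805, 70 entries were higher and 137 lower. On that scale some of the entries named as higher in what follows lie within 2-fold. These are miR-20a, miR-19b, miR-291a-3p, miR-125a-5p, miR-27b, miR-24, miR-411*, miR-154*, miR-300*, miR-96, miR-182, miR-183* and miR-124. The others are miR-484, miR-30c, miR-30d, miR-200a, miR-138, miR-466f and miR-466g, and the bound of miR-129-5p falls under 2-fold. An entry called lower mostly had more reads with doxycycline, but fewer than 32.2 times as many.

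The kind of strand went with the side of the scale. Of 207 unstarred entries 85 were relatively higher and 35 lower, with a median read multiple of 46.1. Of 69 star entries 6 were higher and 50 lower, with a median read multiple of 4.53. The 83 entries with a -5p or -3p suffix, where the names do not say which strand prevails, had 23 higher and 26 lower and a median of 32.7. Star entries were thus 19.2% of the tested entries, 5.26% of the higher ones and 45.0% of the lower ones. Among the entries that reached the minimum in both groups the median read multiple was 2.28 for 39 star entries and 38.1 for 79 unstarred ones.

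The gap between star and unstarred entries was present at each level of abundance. Below 30 mean reads with doxycycline the median read multiple was 2.31 for 20 star entries and 11.3 for 28 unstarred ones. Among entries with 30 to 100 mean reads with doxycycline the median read multiple was 5.06 for 26 star entries and 36.7 for 44 unstarred ones. From 100 to 1000 reads it was 8.82 for 20 star and 55.1 for 88 unstarred entries, and from 1000 reads on it was 8.18 for 3 star and 76.6 for 47 unstarred entries. Those 3 star entries all belong to the miR-290-295 cluster and ran from 2.36 for miR-295* to 43.2 for miR-293*. The levels were set by reads with doxycycline, which also enter the multiple. Taken as shares of reads without miR-805, star strands made up 3.74% with doxycycline (Wilson interval 3.71 to 3.77) and 24.7% without it (24.2 to 25.2). Unstarred strands made up 65.8% and 43.1%, and suffixed strands 30.5% and 32.2%.

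Comparing both strands of the same hairpin removes the choice of scale, because both strands were read in the same libraries. The table has 107 hairpins with an unstarred and a star entry, and 57 of them had 10 or more mean reads over both strands in each group and both strands above the 3-read floor in at least 1 group. Without doxycycline some passed through their star strand alone, such as miR-191, miR-200a, miR-30b and miR-20b, and others through the unstarred one, such as miR-183 and miR-376a. The ratios of such hairpins without doxycycline were thus partly set by the filter. The ratio of unstarred to star reads was at least 2-fold higher with doxycycline in 50 of the 57 (87.7%), at least 2-fold lower in 1 (1.75%) and within 2-fold in 6. Counting intervals excluded no change upwards in 49 hairpins and downwards in 1, and included it in 7. The median change was 16.1-fold, a log2 change of 4.01 with quartiles at 2.50 and 5.19. In reads, the median unstarred strand had 39.5 times more with doxycycline and the median star strand 2.35 times more. Over all 57 hairpins star strands made up 6.31% of reads with doxycycline (6.26 to 6.36) and 45.5% without it (44.7 to 46.2). Leaving out miR-293, miR-294 and miR-295, which dominate the sum, these shares were 7.37% and 49.97%.

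**Figure D2:**
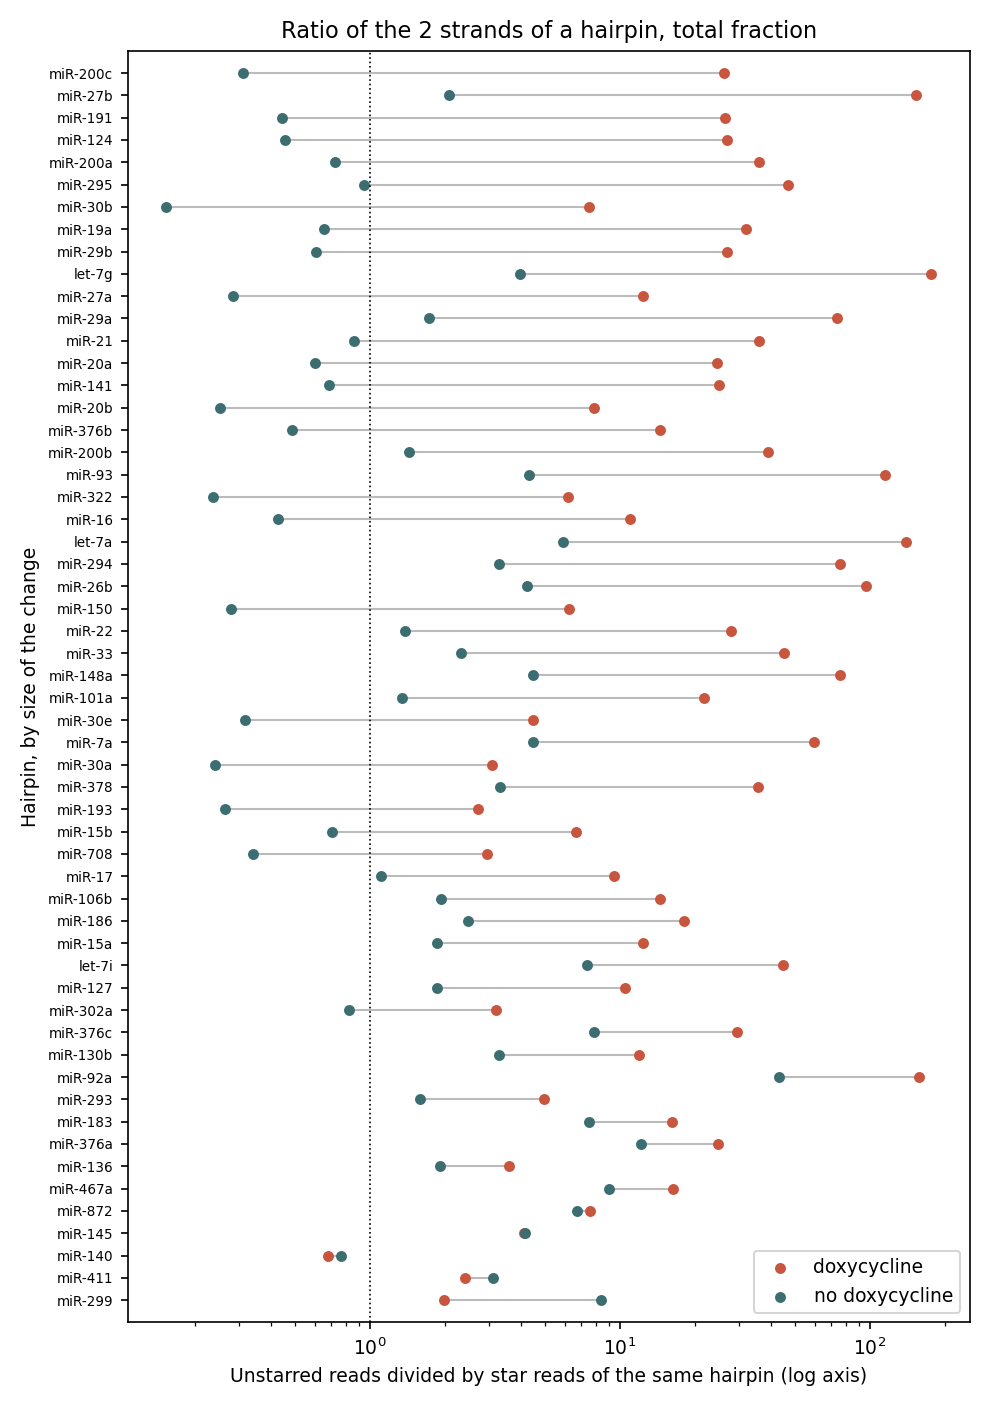
Unstarred reads divided by star reads (log axis) for 56 hairpins with doxycycline and without it, ordered by the size of the change; let-7f, whose star strand had no read with doxycycline, is not drawn. Points with doxycycline lie to the right for most hairpins. Hairpins in which the star strand was the more abundant without doxycycline cross the dotted line at equal reads from below. The exception is miR-140, which stays below it.

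The strand named as the lesser was the more abundant in 1 of the 57 hairpins with doxycycline, which was miR-140, and in 24 without it. The largest change was in miR-200c, a miRNA of the epithelial miR-200 family. Its unstarred strand had 346 mean reads with doxycycline and 12.7 without it, and its star strand 13.3 with doxycycline and 40.7 without. The ratio was thereby 83.4 times higher with doxycycline (50.6 to 132). miR-27b, known for roles in vessels and in lipid metabolism, had 2747 unstarred reads with doxycycline and 29 without and 18 star reads with doxycycline and 14 without, a 73.7-fold change (46.7 to 116). In miR-191 the ratio was 59.1 times higher (31.0 to 108), in miR-124, the miRNA of neurons, 58.6 times (45.1 to 75.5), and in miR-200a 49.99 times (27.6 to 87.7). In these 5 hairpins unstarred reads differed by 27.3 to 135 times and star reads by 0.328 to 2.28 times.

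Well-covered hairpins of the stem cell clusters showed the same order of strands with different sizes. miR-295 had 52355 unstarred reads with doxycycline and 447 without it, against 1117 star reads with doxycycline and 473 without. Its ratio was 49.6 times higher (45.7 to 53.9), and without doxycycline both strands were about equally abundant. miR-294 had 103485 unstarred reads with doxycycline and 544 without and 1360.3 star reads with doxycycline and 166 without, a 23.3-fold change (21.0 to 25.8). miR-293, whose star strand is itself abundant, had 52884 unstarred reads with doxycycline and 394 without and 10693 star reads with doxycycline and 248 without, a 3.11-fold change (2.84 to 3.41). miR-293* was the seventh most abundant entry with doxycycline and multiplied 43.2 times, more than most star strands. Intervals of these 3 hairpins did not overlap.

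Other abundant hairpins lay between those values. miR-21, induced in many growing and stressed cells, had 2623 unstarred reads with doxycycline and 66 without and 72.7 star reads with doxycycline and 76.3 without, so that its ratio was 41.7 times higher (33.0 to 52.5) with about equal star reads in both groups. miR-30e had 2416.5 unstarred reads with doxycycline and 92.8 without and 536.5 star reads with doxycycline and 293 without, a 14.2-fold change (12.3 to 16.4). In miR-30e the star strand was 18.2% of the reads of the hairpin with doxycycline and 75.9% without it. let-7f had no star read with doxycycline and 2.33 without it, so its change is known only roughly. It was 7.70-fold with 3 reads over the group put in place of 0, and its counting interval starts at 2.79-fold.

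In 7 hairpins the ratio was lower with doxycycline or lay within 2-fold. miR-299 of the Dlk1-Dio3 cluster had 320.0 unstarred reads with doxycycline and 86.7 without and 161 star reads with doxycycline and 10.3 without, so that its ratio was 0.236 of that without doxycycline (0.163 to 0.352). miR-411 of the same cluster had 719 unstarred reads with doxycycline and 11.3 without, and 301 star reads with doxycycline and 3.67 without, a change of 0.773 (0.407 to 1.56). miR-140, a cartilage miRNA with an abundant star strand, had 522 unstarred reads with doxycycline and 50.7 without and 766 star reads with doxycycline and 66.3 without, a change of 0.892 (0.715 to 1.11). In miR-140 the star strand led in both groups. miR-145 (0.997, interval 0.514 to 2.01), miR-872 (1.12, 0.561 to 2.47) and miR-467a (1.80, 0.984 to 3.57) had intervals that included no change, and miR-136 was at 1.89 (1.11 to 3.30). miR-467a and miR-467b have the same unstarred count in the table, which cannot be assigned to either. The star count of miR-467a is likewise the same as that of miR-467d*, so both sides of its ratio are uncertain.

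**Figure D3:**
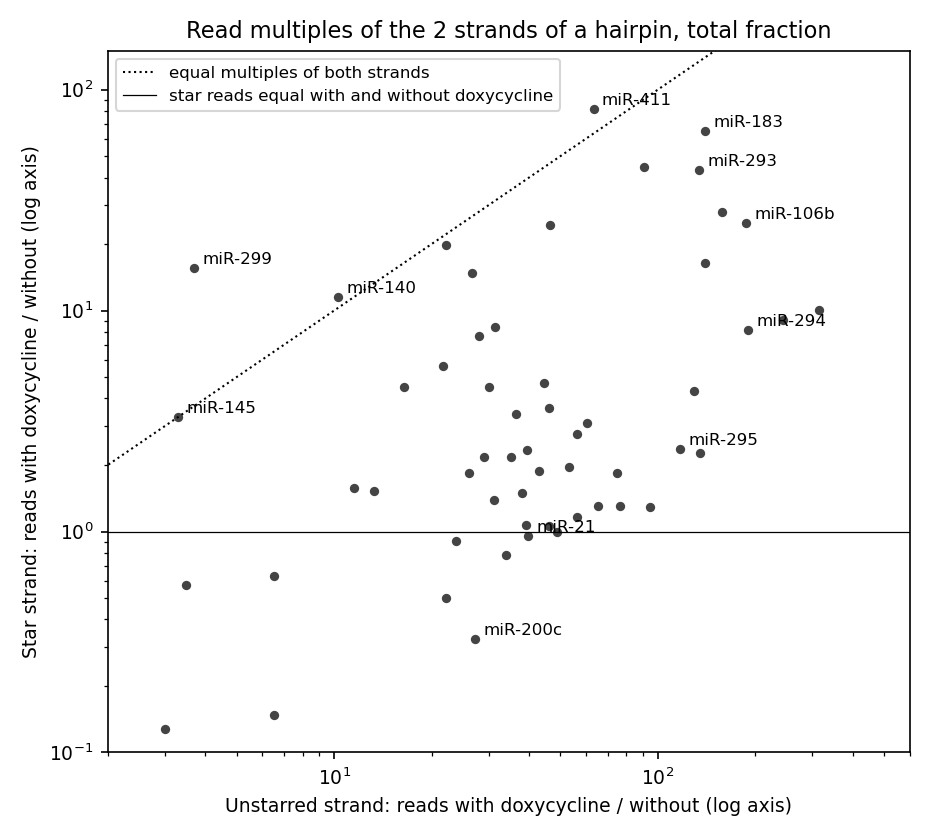
Read multiple (mean reads with doxycycline divided by mean reads without) of the star strand on the vertical log axis against that of the unstarred strand on the horizontal log axis, for the same 56 hairpins. Most points lie below the dotted line of equal multiples and many lie near the solid line, where star reads were equal in both groups; miR-299 lies above the dotted line.

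In hairpins named by arm, no strand is marked as the lesser, so the arm with more reads in the nuclear libraries with doxycycline was put on top. Those libraries are not part of this comparison, but they come from induced cells of the same line. The choice of arm therefore leans towards a higher ratio with doxycycline. In 18 such hairpins the ratio of that arm to the other was at least 2-fold higher in 10, lower in 5 and within 2-fold in 3. Of the 5 lower, miR-466c, miR-878 and miR-466a had intervals that included no change, with at most 0.36 mean reads of an arm without doxycycline. The largest change was in miR-290, with 10586 reads of the 5p arm with doxycycline and 93 without and 239 reads of the 3p arm with doxycycline and 209 without, a 99.5-fold change (84.7 to 116). miR-291a, with 55355 reads of its 3p arm with doxycycline and 565 without and 9302 of its 5p arm with doxycycline and 479 without, had a ratio 5.05 times higher (4.70 to 5.42). miR-292, with 51684 reads of its 5p arm with doxycycline and 1107 without and 21390.2 of its 3p arm with doxycycline and 397 without, had a change of 0.867 (0.812 to 0.928). The blood cell miRNA miR-142 went the other way, at 0.357 (0.300 to 0.424), with 1193 reads of its 5p arm with doxycycline and 101 without and 2734 of its 3p arm with doxycycline and 82.3 without. miR-296, with 862 reads of its 3p arm with doxycycline and 49.3 without and 255 of its 5p arm with doxycycline and 3 without, was at 0.205 (0.112 to 0.418).

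In the nuclear fraction of the same cell line, read in 6 other libraries, the ratio of unstarred to star reads was at least 2-fold higher with doxycycline in 56 of 63 hairpins (88.9%) and at least 2-fold lower in 3, with a median change of 18.3-fold. Of 54 hairpins that reached the minimum in both fractions, 47 were at least 2-fold higher in both.

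Seeds gave a second grouping, over the 268 of 359 tested entries that matched a RefSeq sequence. The AAGUGCU seed of miR-294, miR-295, miR-291a-3p, miR-302b and miR-302d held 39.2% of all reads with doxycycline and 9.72% without it, and its reads were multiplied 136 times (132 to 140). Without miR-805 the shares were 39.5% and 14.6%. Of its 5 matched members 4 were relatively higher and none lower, with miR-302d within 2-fold, against 31.8% and 30.9% of all tested entries. Tested entries without a match, such as miR-302a, miR-30b and miR-30d, are not part of any seed given here. The AAAGUGC seed of the miR-17 family, which promotes cell cycle entry, held 4.32% and 0.872%, or 4.36% and 1.31% without miR-805, and was multiplied 167 times (151 to 184). The related AAGGUGC seed of miR-18a and miR-18b was multiplied 361 times (244 to 589), with few reads without doxycycline: miR-18a had 6.33 and miR-18b 1.17 in the mean library.

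Other abundant seeds were multiplied less. The CUCAAAC seed, held by miR-290-5p, miR-292-5p and miR-293* from the opposite side of the stem cell hairpins, had 13.5% of reads with and 9.02% without doxycycline and a multiple of 50.4 (48.9 to 52.0). Without miR-805 its shares were 13.6% and 13.5%. The AUCAAAG seed of miR-291a-5p and miR-291b-5p had 1.78% and 3.17%, or 1.79% and 4.74% without miR-805, and a multiple of 18.9 (17.9 to 19.9). The AUUGCAC seed, shared by miR-25, miR-32, miR-92a, miR-92b, miR-363 and miR-367, had 1.22% and 1.29%, or 1.23% and 1.93% without miR-805, and a multiple of 31.8 (29.4 to 34.6). The GUAAACA seed, over its matched entries miR-30a, miR-30c and miR-30e, had a multiple of 30.8 (27.6 to 34.4). miR-30b and miR-30d of the same family were not matched, and the 5 unstarred miR-30 entries had a median multiple of 48.9. The miR-25 seed and the matched miR-30 entries thus lay near the median entry, and the AAGUGCU and AAAGUGC seeds well above it.

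By abundance the stem cell cluster led. miR-294 had 103485 mean reads with doxycycline and 544 without it, 190 times more, a log2 fold of 2.56 (2.49 to 2.63). miR-293 was at 2.06 (1.98 to 2.14), miR-295 at 1.86 (1.79 to 1.94), miR-290-5p at 1.82 and miR-291a-3p at 1.60 (1.54 to 1.67). miR-292-3p at 0.74, miR-292-5p at 0.53, miR-293* at 0.42 and miR-291a-5p at -0.73 lay within 2-fold. At the lower end of this cluster were miR-291b-5p at -1.73 (-2.04 to -1.39), miR-294* at -1.98, miR-295* at -3.77 and miR-290-3p at -4.82 (-4.97 to -4.66). Of 14 arms 6 were thus relatively higher (42.9%) and 4 lower (28.6%), against 31.8% and 30.9% of all tested entries. The median read multiple was 50.3, against 33.2 over all tested entries and the 49.9 that counts as no change by totals without miR-805.

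The miR-106b-25 and miR-106a-363 clusters, paralogues of miR-17-92, had the highest median read multiple of the 20 lists. They had 6 of 10 entries relatively higher and 2 lower, or 60% and 20% against 31.8% and 30.9% of all tested entries. Their median read multiple was 215 against 33.2 over all tested entries. miR-106a had 2319 reads with doxycycline and 2.83 without (log2 fold 4.67, 3.77 to 5.97), miR-363 had 684 with doxycycline and 0.667 without (4.99, 3.14 to 8.04) and miR-20b had 2094 with doxycycline and 6.67 without (3.28). miR-93 had 4535 reads with doxycycline and 18.7 without (2.91, 2.54 to 3.32) and miR-106b had 6607 with doxycycline and 35.3 without (2.54, 2.26 to 2.83). Both relatively lower entries were star strands, miR-20b* at -1.69 and miR-93* at -1.83, and miR-25 at -0.22 and miR-106b* at -0.37 lay within 2-fold. The X-linked and the Mcm7 copies share much of their sequence with miR-17 and miR-20a, as the sequences above show, and how reads that fit several of them were counted is not given in the sources used here.

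The miR-17-92 cluster itself had 4 higher and 3 lower of 11, or 36.4% and 27.3%, near the 31.8% and 30.9% of all tested entries. miR-18a was at 3.51 (2.87 to 4.25) with 2329.7 reads with doxycycline and 6.33 without, miR-17 at 2.11 (1.83 to 2.43), miR-20a at 1.21 and miR-19b at 1.21 (1.05 to 1.37) with 7993 reads with doxycycline and 107 without. miR-92a lay at -0.20 and miR-19a at 0.81. The 3 lower entries were miR-92a* at -2.07, miR-20a* at -4.13 and miR-19a* at -4.80. Its median read multiple of 33.7 therefore lay between 74.6 for the 6 unstarred and 7.70 for the 5 star entries.

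**Figure D4:**
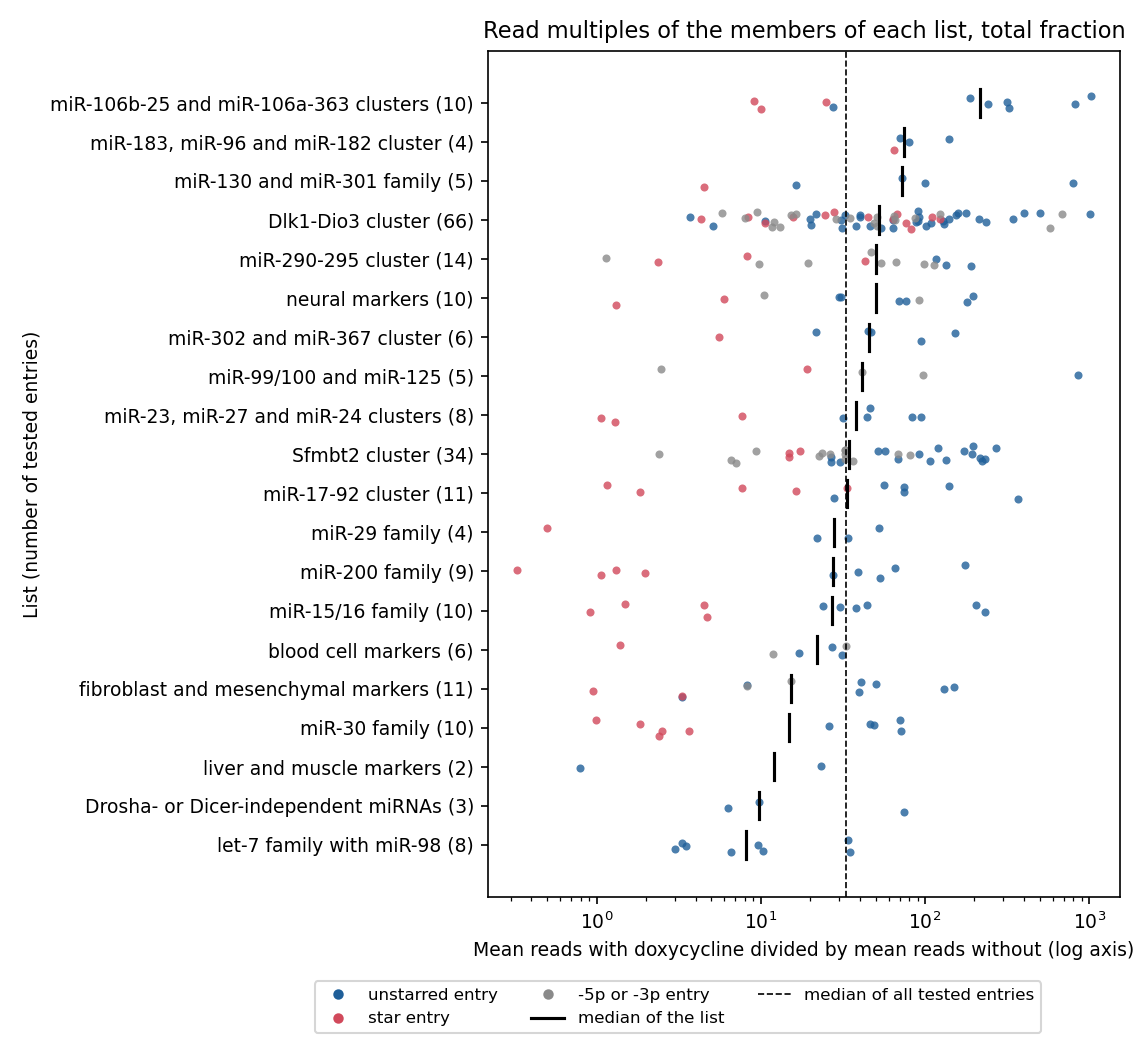
Read multiple (mean reads with doxycycline divided by mean reads without, log axis) of each tested member of the 20 lists, with the list median as a bar and the median of all 359 entries as a dashed line; entries at 0 without doxycycline are drawn at their lower bound. Star entries sit at the left of most families, and let-7 members lie at or left of the dashed line or barely right of it.

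The let-7 family with miR-98, whose maturation LIN28 blocks in stem cells, had the lowest median read multiple of the lists, and its low entries were unstarred. By the median log2 fold the 2 liver and muscle entries were lower, at -2.91 against -2.02 for let-7. None of the 8 let-7 and miR-98 entries was relatively higher and 6 were lower (75%, against 30.9% of all tested entries), with a median read multiple of 8.09. let-7a had 162 mean reads with doxycycline and 54.0 without it, a log2 fold of -3.43 (-3.68 to -3.16). let-7g had 235 with doxycycline and 35.9 without (-2.30), let-7f 118 with doxycycline and 35.8 without (-3.29) and let-7i lay at -3.21. let-7c at 0.07 and let-7e at 0.12 lay within 2-fold, with few reads without doxycycline, 3.93 and 2.11. In the let-7 hairpins compared, let-7a, let-7f, let-7g and let-7i, unstarred reads were more and star reads fewer with doxycycline. let-7g* had 1.33 mean reads with doxycycline and 9 without it, and its ratio was 44.1 times higher (14.4 to 110). The ratio was 23.4 times higher in let-7a (7.20 to 60.3), where the 9.11 star reads without doxycycline are the same as those of let-7c-2*, and 6.12 times in let-7i (1.73 to 19.4).

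In the miR-30, miR-200, miR-15/16 and miR-29 families the lower calls were all star strands. In miR-30, 2 of 10 entries (20%) were higher, miR-30c and miR-30d, against 31.8% of all tested entries. The 5 lower (50%, against 30.9%) were its 5 star entries, with a median multiple of 2.40 against 48.9 for the 5 unstarred ones. The miR-200 family, which maintains the epithelial state, had 2 higher (22.2%) and 4 lower (44.4%) of 9. Its star entries were miR-200b* at -4.04, miR-200a* at -4.63, miR-141* at -4.91 and miR-200c* at -6.62, and its unstarred entries ran from miR-200c at -0.24 to miR-429 at 2.43 (0.88 to 4.71). The miR-15/16 family, known to restrain the cell cycle, had 2 higher (20%), miR-195 at 2.84 and miR-497 at 2.66 (2.08 to 3.32), and 4 lower (40%) of 10. miR-16, with 1448 reads with doxycycline and 38 without, was at 0.24 (-0.03 to 0.52) and miR-16* at -4.43. The miR-29 family, which targets collagens, had miR-29a at 0.07 and miR-29b at -0.54 within 2-fold, miR-29b* at -6.01, and miR-29c with 52.3 reads with doxycycline and 0 without, a log2 fold of at least 0.70.

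The imprinted Dlk1-Dio3 cluster, active from the maternal chromosome, was a list in which star strands were not mostly low. Of 66 entries 29 were relatively higher (43.9%) and 13 lower (19.7%), with a median multiple of 52.3. Of its 13 star entries 5 were higher and 3 lower (38.5% and 23.1%), against 8.70% and 72.5% of all star entries tested. Intervals excluded no change for 3 of the 5 higher ones. By totals without miR-805, miR-411*, miR-154* and miR-300* of these lay within 2-fold. On the main scale miR-485* was at 1.77 (0.21 to 4.06) with 110.0 reads with doxycycline and 1 without and miR-411* at 1.35 (0.50 to 2.35). Its most abundant member miR-127, a regulator of the placental gene Rtl1, had 4571 reads with doxycycline and 29 without (2.29, 1.99 to 2.61), and miR-379 had 2601 with doxycycline and 68.3 without (0.24, 0.04 to 0.45). miR-431 at 3.96 (2.92 to 5.28), miR-543 at 3.63 (2.27 to 5.51) and miR-495 at 3.41 (2.05 to 5.29) were among the highest of all abundant entries, each with fewer than 3 mean reads without doxycycline. At the other end were miR-299 at -3.13 (-3.33 to -2.92), miR-376b* at -2.89 and miR-485 at -2.65.

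The Sfmbt2 cluster, a run of repeated hairpins in an intron of the imprinted gene Sfmbt2, split by name. Its 17 unstarred entries had 12 higher and none lower. These shares were 70.6% and 0%, against 41.1% and 16.9% of all unstarred entries tested. Intervals excluded no change for 9 of the 12, and by totals without miR-805 miR-466f and miR-466g lay within 2-fold. miR-669d was at 2.84 (1.86 to 4.06) with 617 reads with doxycycline and 2.67 without. miR-467e was at 2.79 (1.86 to 3.92) with 668 reads with doxycycline and 3 without. Its 14 suffixed entries had 2 higher and 4 lower, with miR-466d-5p lowest at -3.74. These shares were 14.3% and 28.6%, against 27.7% and 31.3% of all suffixed entries tested. Near-identical copies of this cluster can share reads, so its entries are uncertain singly.

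All 4 entries of the miR-183, miR-96 and miR-182 cluster, known from sensory organs, were relatively higher, but on the totals without miR-805 miR-183 alone was, with miR-96 at 1.30 (0.93 to 1.70), and the star strand miR-183* was among them at 1.01 (-0.36 to 2.90). miR-96 had 1509 reads with doxycycline and 19 without and miR-183 had 1401 with doxycycline and 10 without. In the miR-130 and miR-301 family 3 of 5 were higher and 1 lower, or 60% and 20% against 31.8% and 30.9% of all tested entries. Intervals excluded no change for 2 of the 3. The median log2 fold of the family was 1.18, which lies within 2-fold by totals without miR-805. miR-130a was at 1.63 (1.44 to 1.84) on 6928 reads with doxycycline and 69.3 without. miR-130b lay at -0.97 on 1163.5 reads with doxycycline and 70.8 without. The miR-23, miR-27 and miR-24 clusters had 2 higher, miR-27b at 1.56 and miR-24 at 1.36, and 3 lower of 8, which were miR-24-2*, miR-27b* and miR-27a*. These shares, 25% and 37.5%, were near those of all tested entries. In the group of miR-99/100 and miR-125 there were 2 higher and 1 lower of 5, or 40% and 20% against 31.8% and 30.9% of all tested entries. miR-99b was at 4.72 (2.24 to 10.03) on 284 reads with doxycycline and 0.333 without and miR-125a-5p at 1.60.

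Of 3 miRNAs made without Drosha or Dicer, which bypass a step of the usual pathway, miR-484 was higher at 1.22 (0.51 to 2.03) and miR-320 and miR-877 were lower at -1.72 (-1.92 to -1.51) and -2.35 (-3.60 to -0.81). miR-320 had 695 reads with doxycycline and 71 without. Among markers of other tissues, 5 of 10 neural entries were higher and 2 lower. These shares were 50% and 20%, against 31.8% and 30.9% of all tested entries, and intervals excluded no change for 4 of the 5. By totals without miR-805, miR-124 and miR-138 of the 5 lay within 2-fold, and miR-128 and miR-218 stayed higher. The bound of miR-129-5p, which had no read without doxycycline, fell under 2-fold there. By those totals 70 of all 359 entries were higher. miR-124 was at 1.25 (0.97 to 1.54) on 2683 reads with doxycycline and 35 without and miR-128 at 2.48 (1.11 to 4.36). The 2 lower neural entries were miR-9* and miR-124*. Of 6 blood cell entries none was higher and 2 were lower (33.3%), miR-142-5p at -1.44 (-1.61 to -1.27) and miR-150*, and miR-142-3p lay at 0.04. Of 11 fibroblast and mesenchymal entries 2 were higher (18.2%) and 6 lower (54.5%), the lower ones including the star strands miR-21* and miR-145*. miR-221 was at 2.23 (1.00 to 3.85), miR-143 at 0.34, miR-21 at 0.30 and miR-145 at -3.29 (-3.74 to -2.82). Of the liver and muscle markers, muscle miR-499 lay at -0.48 (-0.91 to -0.02) on 354 reads with doxycycline and 15.3 without, and miR-122 was lower at -5.34.

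The 12 entries with fewer reads with doxycycline were mixed in kind. miR-805 was the most abundant, with 4494 mean reads with doxycycline and 5338 without it, a multiple of 0.842 (0.823 to 0.861). It ranked 15 by abundance with doxycycline and 1 without it. miR-122, the main miRNA of liver, had 59.0 reads with doxycycline and 74.3 without (0.794, 0.648 to 0.971), miR-1949 had 47 with doxycycline and 70.7 without (0.665, 0.534 to 0.827) and miR-677 had 39.3 with doxycycline and 52 without (0.756, 0.590 to 0.967). miR-1940 had 2.33 reads with doxycycline and 12.3 without (0.189) and miR-759 had 10.7 with doxycycline and 17.3 without (0.615).

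The other 6 of the 12 were star strands. miR-200c* had 13.3 reads with doxycycline and 40.7 without (0.328, 0.223 to 0.472), miR-193* 25.7 with doxycycline and 40.7 without (0.631, 0.468 to 0.846) and miR-29b* 6.33 with doxycycline and 12.7 without (interval of the multiple 0.272 to 0.889). miR-21* (72.7 reads with doxycycline and 76.3 without), miR-30b* (56.3 with and 56.7 without) and miR-322* (16.7 with and 18.3 without) had intervals that included equal reads. For 9 of the 12 the interval excluded equal reads, and each of the 12 also had fewer mean reads with doxycycline in the nuclear libraries. Since 2 of the 12, miR-1940 and miR-29b*, passed the minimum through the group without doxycycline alone, their direction followed from the filter.

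**Figure D5:**
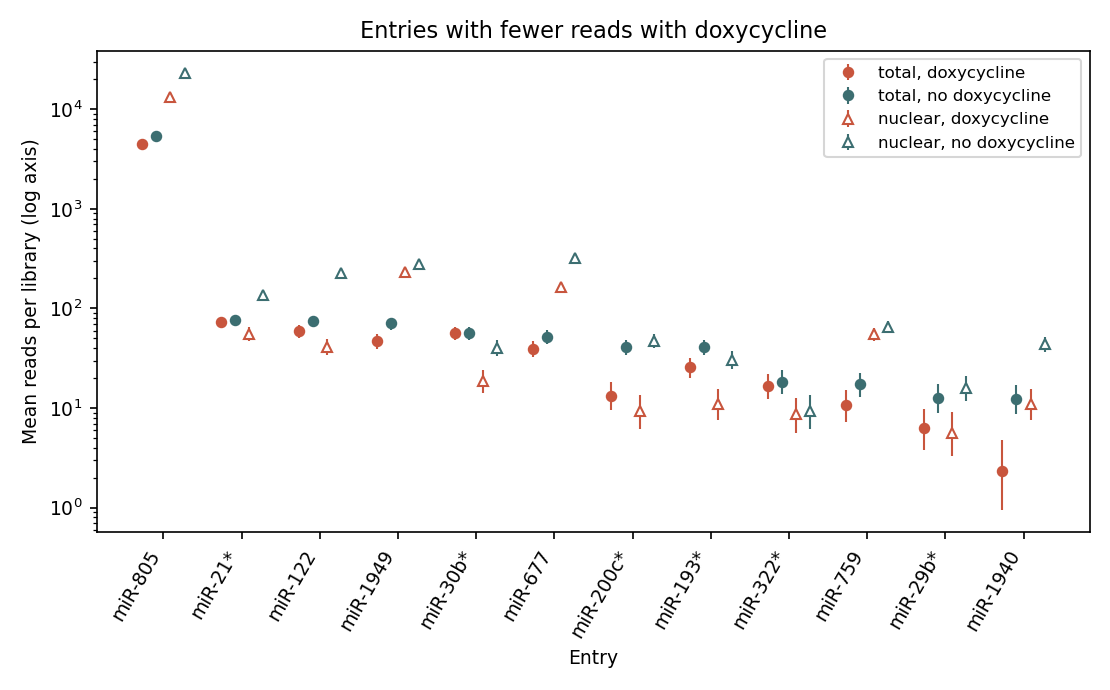
Mean reads per library (log axis) of the 12 entries with fewer reads with doxycycline in the total fraction, with 95% Poisson intervals on the reads of the group, in the total fraction (circles) and in the nuclear fraction (triangles), with and without doxycycline. miR-805 stands far above the others, and miR-1940, miR-200c* and miR-29b* have the lowest ratio of reads with doxycycline to reads without in the total fraction.

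Without doxycycline the 12 most abundant entries were led by miR-805, followed by arms of the miR-290-295 cluster, and also held miR-30e* and miR-1965. miR-295* ranked 53 with doxycycline and 6 without it, and miR-30e* ranked 89 with it and 10 without it. miR-1965 had 2040.0 reads with doxycycline and 216 without, a log2 fold of -1.77 (-1.89 to -1.65), and ranked 30 with doxycycline and 12 without it. Strands that rank high without doxycycline thus included entries that were minor with it.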

How the data were processed

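Small RNA libraries were made per the labels from anti-FLAG pull-downs by adapter ligation, reverse transcription and PCR. The submitters' processing notes name TopHat, mm10 and bcl2fastq 2.17.1, and the counting step is not given in the sources used here. The authors deposited an estimated count per miRNA entry, as 1 mean over the 3 libraries of each group. Multiplied by 3, 82.9% of the doxycycline and 91.4% of the other values were whole to within 1e-06; the rest were fractional.

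Because only means were deposited, edgeR's quasi-likelihood test could not be run, no p-value is given, and 2-fold is a rule of size. TMM factors came from edgeR 4.0.16 (R 4.3.3) over entries with 10 or more mean reads in either group. Ratios have 95% Clopper-Pearson intervals on reads of the group (mean times 3), shares Wilson intervals and strand ratios Woolf intervals. For an entry at 0 without doxycycline, 3 reads over its group were used instead; its fold is a lower bound, and list medians use that bound. No molecular identifiers mark the PCR reads, and the intervals and floors therefore cover only counting error. Hairpins whose strand was at or under the floor in both groups were left out. Procedures were tested on simulated data. Python 3.11.15, pandas 2.3.3 and SciPy 1.17.1 were used. Unlisted sample columns numbered 0.

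The members and the 20 lists were chosen with earlier results of these data known. Named entries were the 12 most abundant per group, the 10 largest relative differences per direction among abundant entries, all with fewer reads, 2 leading members per list, 6 hairpins at each end of the strand ratio, and those nearest the minimum; other list members were named after their values were seen. RefSeq sequences were matched through names for 268 of 359 entries, and 91 of 114 strands in the hairpins compared (79.8%), so base composition over these sets was not compared. Gene positions follow GENCODE vM21, same strand.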

Additional observations from a re-analysis of the deposited data

How the results depend on the processing

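Every scale moves all log2 folds by 1 constant: -0.06 for column totals, -0.12 for median-of-ratios factors and -0.63 for totals without miR-805. Counts of higher and lower entries were 114 and 111 by TMM, 107 and 114 by totals, 101 and 117 by median-of-ratios factors, 70 and 137 by totals without miR-805, and 330 and 3 without scaling. With TMM refitted, they were 186 and 219 with no minimum, 50 and 50 with 10 mean reads in both groups, 89 and 78 with a minimum of 30; by the original scale they were 57 and 77 where the interval had to exclude 2-fold. The ratio of read sums was 33.6, 49.9 without miR-805 and 55.4 over entries matched to RefSeq. Hairpins with a strand ratio at least 2-fold higher and lower numbered 50 and 1 of 57, 64 and 2 of 74 with a minimum of 3, 36 and 1 of 39 with a minimum of 30, 60 and 6 of 75 with -5p and -3p pairs added, and 47 and 1 of 54 without the miR-290-295 cluster (chosen after seeing the data).

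Without scaling the sign turns for any entry that had more reads with doxycycline but fewer than 32.2 times as many. Among named entries called lower with an interval that excluded no change, the unscaled log2 values were 1.24 for miR-295*, 0.87 for miR-30e*, 3.24 for miR-1965, 0.077 for miR-27a*, 0.097 for miR-141*, 2.71 for let-7g, 1.59 for let-7a, 3.29 for miR-320, 3.57 for miR-142-5p, 1.88 for miR-299, 3.96 for miR-299*, 3.36 for miR-140, 3.53 for miR-140*, 1.72 for miR-145, 1.73 for miR-145*, 0.38 for miR-200a*, 0.39 for miR-124*, 1.19 for miR-191* and 0.36 for miR-27b*. Between the scales at 32.2 and 49.9 times the reads, the medians of the miR-302 and miR-367, miR-17-92, Sfmbt2, miR-99/100 and miR-125, miR-23, miR-27 and miR-24 and neural lists change sign.

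No paired analysis was possible because the table holds 1 mean column per group, and leaving out single libraries was not run for the same reason. Depth limits the side without doxycycline most: a count of 0 there allows 62.3 CPM, so entries with few reads without doxycycline have wide intervals.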
